A study of Mus musculus with 24 samples.

Results

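Pancreatic stellate cells (PSC) in standard co-culture with cancer cells were compared between 72 h and 24 h of co-culture. The comparison rests on 6 RNA libraries of the 24 in the series, 3 at each time point, chosen by the culture and time given in their titles and paired by the replicate number of the title. PSC came from pooled pancreata (between 4 and 10 per isolation) of wild-type C57BL/6J mice of both sexes, aged 7 to 10 weeks. They were used at a low passage and seeded on a membrane with 1 µm pores in a culture insert. The cancer cells, a KPC line from a mouse in which p48-Cre switches on the alleles that drive the tumour, a mutant Trp53 allele among them, in the pancreatic epithelium, grew at the bottom of the well, so that medium but no cell contact was shared. The line stems from a single female mouse. Medium was not exchanged once the co-culture had begun. Mono-cultured PSC of the same model (6 libraries) and PSC of inverse co-culture, with KPC cells on the underside of the membrane (6 libraries), are given beside these values. Per the labels, libraries were built from 450 ng of RNA in the standard and 120 ng in the inverse model, and per the study's methods the cells also shared medium for longer in the inverse model, so distance, RNA input and duration cannot be told apart.

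PSC store vitamin A in lipid droplets in the healthy pancreas and turn into matrix-producing myofibroblasts when they are activated by injury, by growth factors or by stiff culture surfaces. Close to a tumour they become cancer-associated fibroblasts (CAF), which are commonly divided into contractile, matrix-rich myCAF and cytokine-secreting iCAF. Cells kept in an unchanged medium consume glucose and amino acids, accumulate lactate, and stop dividing as they become dense.

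Counted fragments per library, recovered from the deposited FPKM (fragments counted on a gene, scaled to its length and to the library total), ranged from 17590865 to 23366826 in the 6 libraries. Stellate markers were abundant, with Col1a1 between 7297 and 10708 FPKM and Acta2 between 581 and 3129 FPKM, whereas Lrat and Gfap, which mark quiescent stellate cells, were at or below 0.058 FPKM. The study reports positive GFAP immunostaining of PSC on glass slides, a measure of protein and not of RNA. The epithelial markers Epcam and Cdh1 were above 0 in 1 library each, and summed FPKM of the 8 epithelial markers lay between 8.49 and 9.67 at 24 h, and between 7.14 and 10.8 at 72 h. Of the other marker lists, 1 of 6 endothelial and 1 of 6 acinar markers, 0 of 5 islet, 0 of 4 Schwann cell and 0 of 4 lymphocyte markers had an FPKM above 1 in any library. Of the mesothelial and mural markers, 3 of 4 and 3 of 5 were above 1 FPKM in any library. Their summed FPKM lay between 19.1 and 41.1 and between 13.6 and 26.4 in the 6 libraries. Most of each sum came from a single gene, Wt1 (18.5 to 34.5 FPKM) and Notch3 (11.6 to 21.1 FPKM). Whether mesothelial or mural cells were present was not tested. The summed FPKM of the 10 macrophage markers differed widely between replicates. It was 40.7, 415 and 64.0 in replicates 1, 2 and 3 at 24 h and 86.4, 811 and 186 at 72 h, with no marker at 0 in any library, so that replicate 2 stood apart at both times. In bulk RNA, fewer cells of a type and less RNA per cell cannot be told apart. Over all listed genes, the Pearson correlation of log2(FPKM + 1) was 0.987 to 0.994 between libraries of the same number and 0.977 to 0.992 within a time point. Between libraries that differed in number and time it was 0.975 to 0.994, so these ranges overlap. They are a description across genes.

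No gene passed the threshold between 72 h and 24 h. Of 12805 genes tested, 0 (0%) had a Benjamini-Hochberg adjusted p under 0.05 in limma with the replicate number as a block, and the smallest adjusted p was 0.151. Without adjustment, 1597 genes had a p under 0.05, 558 of them higher (4.36% of the genes tested) and 1039 lower (8.11%) at 72 h. All 3 pairs were higher for 1424 genes (11.1%) and lower for 3510 genes (27.4%). In 316 genes (2.47%) every 72 h library lay above every 24 h library, and in 981 genes (7.66%) below. The median log2 change of all genes was -0.07 and the median standard error 0.15. When libraries were scaled by the median of gene ratios, which brought that median to -0.002, the split of the genes with a p under 0.05 turned to 821 higher and 511 lower, so small decreases shared by many genes depend on the scaling. Voom on recovered fragments called 5 genes higher (Ccl6, Hsd11b1, Mrc1, Mt1 and Ndufa4l2), named here because of that count. In the following, values are FPKM in replicates 1, 2 and 3 in that order, changes are fitted log2 changes of FPKM + 0.5 (72 h against 24 h) with their standard error, and a p under 0.05 in the account of a gene list is unadjusted. Fold changes of genes with a low FPKM are understated on this scale. For list counts at a p under 0.05 given alone, the shares over all genes in standard co-culture are 4.36% higher and 8.11% lower. In mono-culture they are 4.47% and 4.44%, and in inverse co-culture 5.11% and 12.8%. For the difference of the time courses with and without KPC cells they are 0.869% more positive and 1.90% more negative. Of each list the members with the highest FPKM are given, and further examples were chosen after their values were seen. The study calls the libraries of a group biological replicates, and whether equal numbers mark 1 isolation is not stated.

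**Figure D1:**
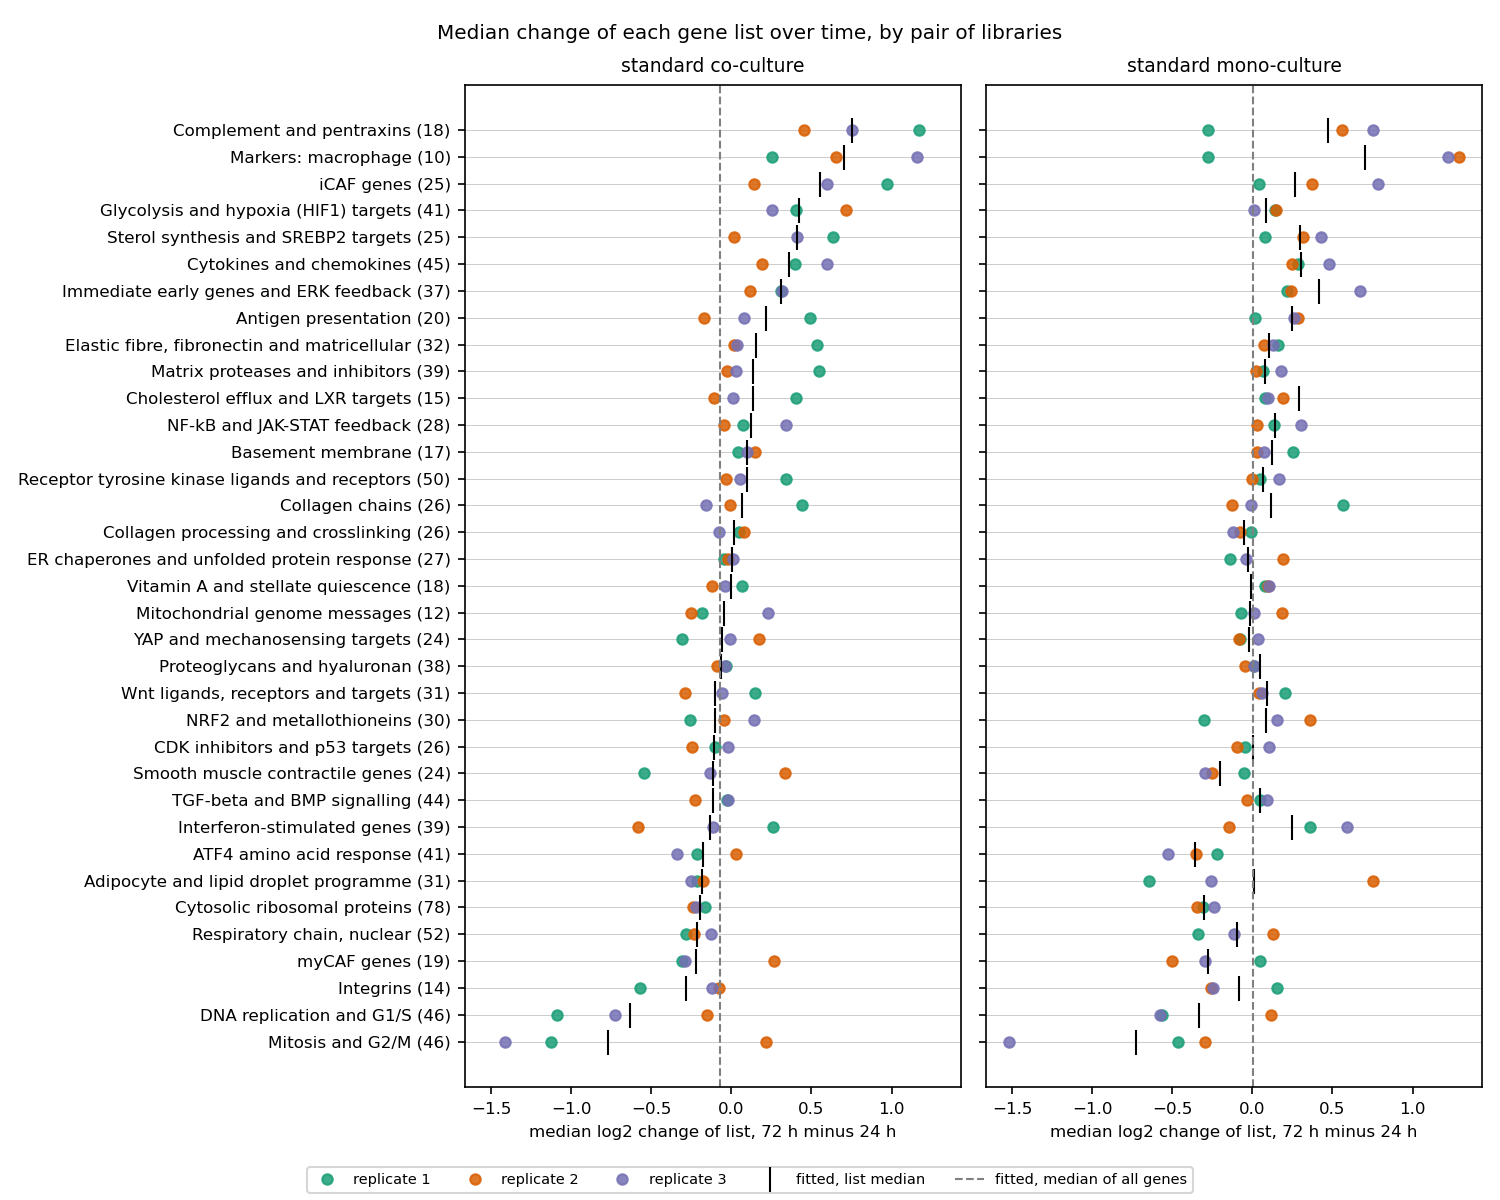
Median log2 change (72 h minus 24 h, x axis) of the tested members of each gene list (y axis, number tested in standard co-culture in brackets) in co-cultured and in mono-cultured PSC of the standard model. Circles are the 3 pairs of same-numbered libraries, black ticks the fitted median of the list and dashed lines the fitted median of all genes, and in co-culture the complement list lies highest (0.75) and the mitosis list lowest (-0.77).

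The 6 genes with the smallest p were all higher at 72 h in 3 of 3 pairs. Metallothionein 1 (Mt1), which binds zinc and copper, had 25.8, 75.6 and 30.9 FPKM at 24 h and 67.8, 172 and 82.97 FPKM at 72 h. Every pair was higher by a similar factor, although replicate 2 at 24 h overlapped the later group, and the log2 change was 1.32 (standard error 0.09, adjusted p = 0.151 from limma). The promoter of Mt1 (RefSeq, GRCm38.p6, plus strand, chr8:94178839-94179138) is shown because Mt1 had the smallest p. Capitals mark matches to TGCACNC or TGCGCNC, the core letters of the metal response element, on either strand.
Mt1 promoter: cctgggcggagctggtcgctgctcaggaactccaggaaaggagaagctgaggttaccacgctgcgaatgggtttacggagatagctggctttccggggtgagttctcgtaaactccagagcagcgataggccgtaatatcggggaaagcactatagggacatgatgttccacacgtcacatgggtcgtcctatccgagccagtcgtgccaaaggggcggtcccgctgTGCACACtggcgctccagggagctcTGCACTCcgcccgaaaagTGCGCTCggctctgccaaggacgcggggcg
It held 3 matches, and 36.9% of the 9330 promoters of tested genes held at least 1. Of 25 tested NRF2 targets and metallothioneins with a promoter, 5 (20%) held at least 1. A match is a description of the letters and not of a bound site.

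Hsd11b1, the enzyme that regenerates active glucocorticoid from its inert form, had 14.8, 29.9 and 28.7 FPKM at 24 h and 48.6, 98.3 and 66.7 FPKM at 72 h. The groups did not overlap, and the log2 change was 1.53 (standard error 0.13, adjusted p = 0.174). Errfi1, a feedback inhibitor of the EGF receptor, had 81.9, 198 and 136 FPKM at 24 h and 154, 349.6 and 259 FPKM at 72 h, a log2 change of 0.88 (standard error 0.09). The chemokine gene Ccl6 had 3.54, 32.3 and 2.76 FPKM at 24 h and 13.9, 192 and 24.1 FPKM at 72 h, a log2 change of 2.43 (standard error 0.22, adjusted p = 0.174). Wfdc17, a secreted protein made by activated macrophages, had 0.299, 15.02 and 3.76 FPKM at 24 h and 4.26, 60.8 and 27.5 FPKM at 72 h. Lyz2, the lysozyme of myeloid cells, had 26.3, 266 and 43.4 FPKM at 24 h and 63.4, 542 and 133 FPKM at 72 h. For Ccl6, Wfdc17 and Lyz2 replicate 2 had the highest value at both times, as it did for the summed macrophage markers, and the part of those cells in these changes was not tested. In mono-cultured PSC the log2 changes over the same time were 0.80 for Mt1, 0.74 for Hsd11b1, 0.66 for Errfi1, 0.72 for Ccl6, 0.55 for Wfdc17 and 0.83 for Lyz2. The difference of the time courses was 1.72 for Ccl6 (standard error 0.39) and 0.52 for Mt1 (0.23), and none of the 6 passed after adjustment in limma.

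**Figure D2:**
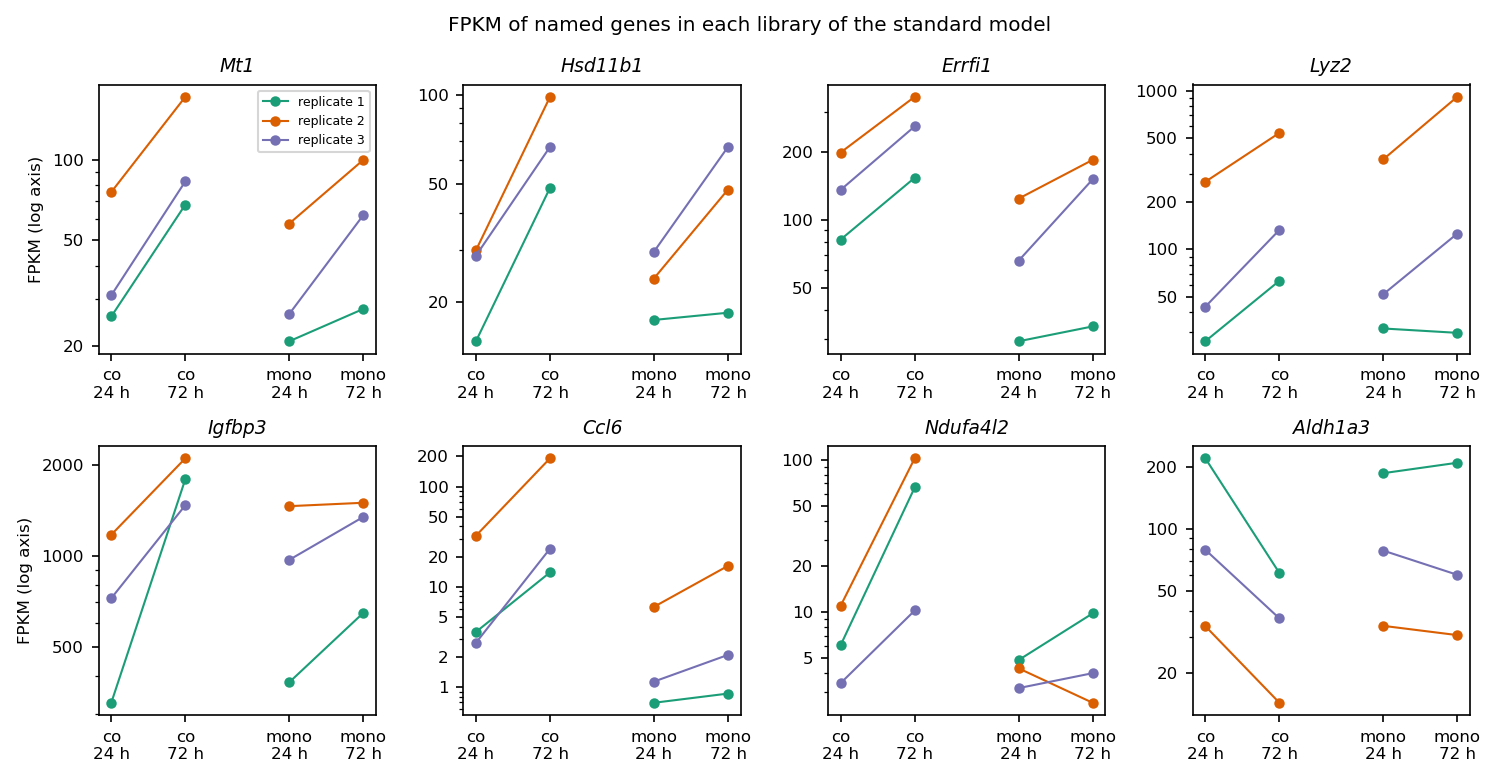
FPKM (log axis) of 8 named genes in every library of the standard model, with co-cultured PSC on the left and mono-cultured PSC on the right of each panel and lines joining libraries with the same replicate number. In co-culture all 3 lines go up for 7 genes and down for Aldh1a3.

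Genes of glycolysis and hypoxia were on balance higher at 72 h, without any passing adjustment. Hypoxia-inducible factor (HIF) switches on glucose transporters, glycolytic enzymes and mitophagy receptors when oxygen is low. Of 41 tested members of this list, 22 were higher with a p under 0.05 and 0 lower, where all genes gave 4.36% and 8.11%, and 28 were higher in all 3 pairs and 0 lower in all 3. The median log2 change was 0.42, and the pair medians were 0.41, 0.72 and 0.25. Without replicate 1, 2 or 3 the number with a p under 0.05 was 24, 14 and 18, and without the replicate block it was 9.

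Ndufa4l2, a mitochondrial protein that lowers respiration in hypoxia, had 6.09, 11.03 and 3.44 FPKM at 24 h and 65.9, 102 and 10.3 FPKM at 72 h. Replicates 1 and 2 at 72 h lay far above all others while replicate 3 stayed within the 24 h range, and the log2 change was 2.65 (standard error 0.38, adjusted p = 0.266). Pdk1, the kinase that keeps pyruvate out of mitochondria, had 15.5, 18.7 and 11.4 FPKM at 24 h and 46.3, 57.1 and 19.4 FPKM at 72 h (log2 change 1.29, standard error 0.19). Bnip3, a mitophagy receptor, had 59.6, 70.1 and 51.98 FPKM at 24 h and 127, 187 and 77.3 FPKM at 72 h (log2 change 1.02, standard error 0.17). The groups of Pdk1 and of Bnip3 did not overlap, and replicate 3 was the lowest of the 72 h libraries for each. Slc2a1, the glucose transporter GLUT-1, had 74.7, 67.3 and 57.4 FPKM at 24 h and 110.0, 143 and 89.5 FPKM at 72 h (log2 change 0.76, standard error 0.13), again without overlap. The most abundant members were Pkm and Eno1, which encode the glycolytic enzymes pyruvate kinase and enolase. Eno1 had 1422, 639 and 616 FPKM at 24 h and 1784, 1567 and 735 FPKM at 72 h, so that its groups overlapped (log2 change 0.62, standard error 0.23), and Pkm had 1527, 834 and 882 FPKM at 24 h and 1535, 1557 and 897 FPKM at 72 h, with replicate 2 alone clearly higher. The collagen prolyl hydroxylases P4ha1 and P4ha2, which are HIF targets as well, had log2 changes of 0.56 (standard error 0.14) and 0.42 (0.13), with 3 of 3 pairs higher for each.

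The promoters of Bnip3 (RefSeq, GRCm38.p6, minus strand, chr7:138909457-138909756) and Slc2a1 (plus strand, chr4:119108495-119108794) are shown as examples of this list, with ACGTG, the core letters of the hypoxia response element, in capitals on either strand.
Bnip3 promoter: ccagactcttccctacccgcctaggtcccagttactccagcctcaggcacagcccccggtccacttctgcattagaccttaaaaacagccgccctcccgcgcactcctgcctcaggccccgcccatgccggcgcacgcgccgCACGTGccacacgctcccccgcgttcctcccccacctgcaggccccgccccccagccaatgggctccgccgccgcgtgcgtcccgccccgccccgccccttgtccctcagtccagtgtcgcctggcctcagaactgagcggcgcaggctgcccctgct
Slc2a1 promoter: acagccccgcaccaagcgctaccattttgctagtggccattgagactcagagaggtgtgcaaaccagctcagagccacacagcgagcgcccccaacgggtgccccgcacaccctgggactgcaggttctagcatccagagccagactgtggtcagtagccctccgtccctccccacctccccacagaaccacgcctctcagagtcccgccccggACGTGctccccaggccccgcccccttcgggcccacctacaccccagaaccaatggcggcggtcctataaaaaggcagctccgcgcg
In the Bnip3 promoter both strands match at overlapping positions, so that 6 letters are capitals. Of the 35 tested list members in the promoter table, 19 (54.3%) held ACGTG, and of all 9330 promoters of tested genes 2440 (26.2%) did. The promoter of Pdk1 held none, and that of Ndufa4l2 was not among those matched.

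Mono-cultured PSC of the same model gave a median log2 change of 0.09 for these genes, with 3 members higher and 2 lower at a p under 0.05 (4.47% and 4.44% of all genes) and 8 higher in all 3 pairs, where 15.7% of all genes were and 14.6% were lower. The difference between the time courses with and without KPC cells had a p under 0.05 for 7 members, all with the more positive change in co-culture, where 0.869% of all genes were higher and 1.90% lower. The difference was 2.46 on the log2 scale for Ndufa4l2 (standard error 0.84), 1.00 for Pdk1 (0.42) and 0.70 for Bnip3 (0.39), and none passed after adjustment in limma. In inverse co-culture the median of the list was 0.17, with 5 members higher and 1 lower (5.11% and 12.8% of all genes). The pair medians there were 0.60, 0.29 and -0.44, so that replicates 1 and 2 were higher and replicate 3 lower. The difference from inverse co-culture had a p under 0.05 for 2 members with a more positive change in standard co-culture and 0 with a more negative one. Over all genes these shares were 4.75% and 3.35%.

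**Figure D3:**
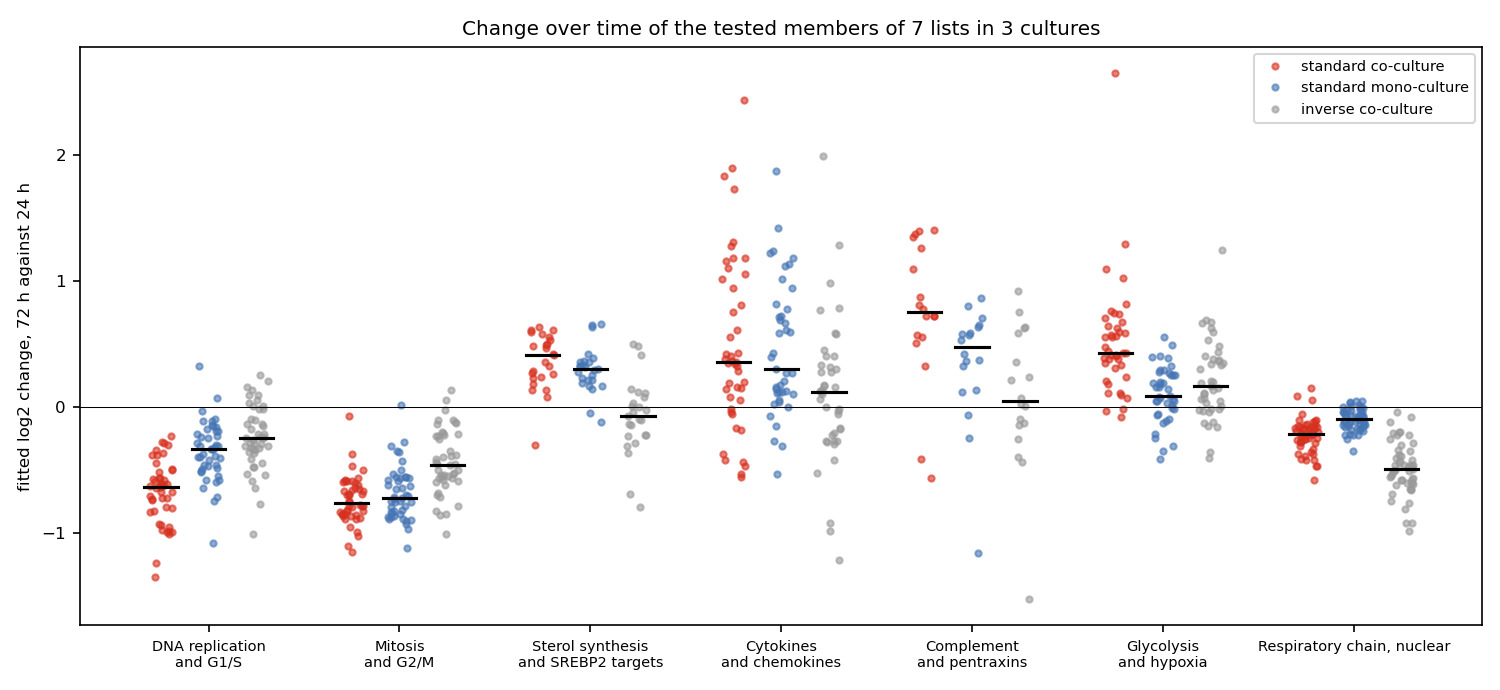
Fitted log2 change between 24 h and 72 h (y axis) of every tested member (points) of 7 gene lists (x axis) in standard co-culture, standard mono-culture and inverse co-culture, with bars at the medians. The glycolysis and hypoxia list has medians of 0.42, 0.09 and 0.17 in these cultures, and the DNA replication list -0.64, -0.33 and -0.25.

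Genes of DNA replication were on balance lower at 72 h. Of 46 tested members of the replication and G1/S list, 33 were lower with a p under 0.05 and 0 higher (8.11% and 4.36% of all genes), and 35 were lower in all 3 pairs (27.4% of all genes). The median log2 change was -0.64, but the pair medians of -1.09, -0.15 and -0.72 show that replicate 2 differed little between the times. Without replicate 1, 2 or 3 the number with a p under 0.05 was 10, 38 and 6, without the block 2, and with median-ratio scaling 23. Cdt1, which loads the replicative helicase, had 24.2, 6.89 and 8.79 FPKM at 24 h and 10.3, 4.72 and 3.45 FPKM at 72 h (log2 change -0.98, standard error 0.19). Mcm10, a helicase cofactor, had 11.6, 2.42 and 3.59 FPKM at 24 h and 5.69, 1.27 and 1.31 FPKM at 72 h (log2 change -0.96, standard error 0.19). Rrm1, the large subunit of ribonucleotide reductase and the most abundant member, had 199, 61.3 and 83.3 FPKM at 24 h and 87.5, 46.9 and 54.5 FPKM at 72 h (log2 change -0.72, standard error 0.17). In all of these replicate 1 at 24 h had the highest level. Orc6, a subunit of the origin recognition complex, was the only one of these 5 members whose groups did not overlap, with 28.9, 16.1 and 19.6 FPKM at 24 h and 14.4, 11.5 and 14.3 FPKM at 72 h. The clamp Pcna had 139, 60.8 and 71.6 FPKM at 24 h and 64.5, 64.2 and 56.8 FPKM at 72 h, so that replicate 2 was not lower.

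E2F factors switch on replication genes when cells enter S phase. The promoter of Cdt1 (RefSeq, GRCm38.p6, plus strand, chr8:122567765-122568064) is shown because Cdt1 had the smallest p of the list members with a promoter, with matches to TTTCGCGC, TTTGGCGC or TTTCCCGC, letters that E2F factors are known to bind, in capitals.
Cdt1 promoter: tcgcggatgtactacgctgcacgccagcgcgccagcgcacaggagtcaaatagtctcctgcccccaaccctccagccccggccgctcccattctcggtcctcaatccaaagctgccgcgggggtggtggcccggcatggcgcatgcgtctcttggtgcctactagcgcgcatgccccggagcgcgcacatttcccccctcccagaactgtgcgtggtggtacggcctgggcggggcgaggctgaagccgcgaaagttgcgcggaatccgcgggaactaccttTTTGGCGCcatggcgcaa
Of 35 tested list members with a promoter, 12 (34.3%) held such a match on either strand, and of all 9330 promoters 344 (3.69%) did. The promoters of Mcm10, Rrm1 and Orc6 held none.

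Mitosis genes had a lower median still (-0.77), but 12 of 46 were lower at a p under 0.05, where 8.11% of all genes were, and 9 were lower in all 3 pairs, where 27.4% were. Their pair medians were -1.12, 0.22 and -1.41, so replicates 1 and 3 were lower at 72 h and replicate 2 was higher, and without replicate 2 the number with a p under 0.05 was 44. Foxm1, the transcription factor of mitotic genes, had 58.4, 13.1 and 23.4 FPKM at 24 h and 22.2, 11.03 and 8.12 FPKM at 72 h (log2 change -1.03, standard error 0.26). Top2a, a topoisomerase, had 133, 28.5 and 60.7 FPKM at 24 h and 64.2, 33.3 and 20.5 FPKM at 72 h, and Cdc20, an activator of the anaphase-promoting complex, 109, 13.1 and 36.1 FPKM at 24 h and 47.5, 14.4 and 11.9 FPKM at 72 h. The spread between replicates at 24 h thus exceeded the change in replicate 2. In mono-culture the median was -0.73, with 27 members lower at a p under 0.05, where 4.44% of all genes were. The difference of the time courses had a p under 0.05 for 0 of the mitosis genes and 2 of the replication genes. Over all genes it was more positive for 0.869% and more negative for 1.90%. Of 26 CDK inhibitors and p53 targets, 0 were higher and 5 lower at a p under 0.05 (4.36% and 8.11% of all genes). Cdkn1a (p21), an inhibitor of cyclin-dependent kinases, had 236, 217 and 188 FPKM at 24 h and 225, 183 and 214 FPKM at 72 h, a log2 change of -0.04 (standard error 0.11). Phlda3, a p53 target, had a log2 change of -0.38 (standard error 0.09), and Cdkn2a, with 10.5, 10.6 and 10.2 FPKM at 24 h and 7.07, 7.02 and 6.71 FPKM at 72 h, did not overlap between the times.

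Complement genes had the highest median of all lists, 0.75. Of 18 tested members, 13 were higher with a p under 0.05 and 1 lower (4.36% and 8.11% of all genes), and 16 were higher in all 3 pairs and 1 lower in all 3 (11.1% and 27.4%). The pair medians were 1.17, 0.46 and 0.75. Without the block, 1 member had a p under 0.05. C3, the central complement component, had 284, 2413 and 1024 FPKM at 24 h and 946, 4771 and 2816 FPKM at 72 h. Each pair was higher, but the replicates lay further apart than the times, and the log2 change was 1.39 (standard error 0.18, adjusted p = 0.263). Serping1, the C1 inhibitor, had 224, 1326 and 818 FPKM at 24 h and 664, 1594 and 1402 FPKM at 72 h (log2 change 0.87, standard error 0.25). C1qa, a subunit of the C1q initiator that macrophages make, had 1.84, 35.4 and 3.52 FPKM at 24 h and 5.94, 72.5 and 12.9 FPKM at 72 h (log2 change 1.41, standard error 0.17), and its partners C1qb and C1qc had log2 changes of 1.37 and 1.26. Leaving out the members that macrophages express strongly, a choice made after the values were seen, 9 of 13 were higher with a p under 0.05 and the median was 0.72. In mono-culture the list had a median of 0.47 and pair medians of -0.28, 0.56 and 0.76, with 5 members higher (4.47% of all genes). The difference between these time courses was 0.80 for C3 (standard error 0.58), and 1 of the 18 members had a p under 0.05.

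**Figure D4:**
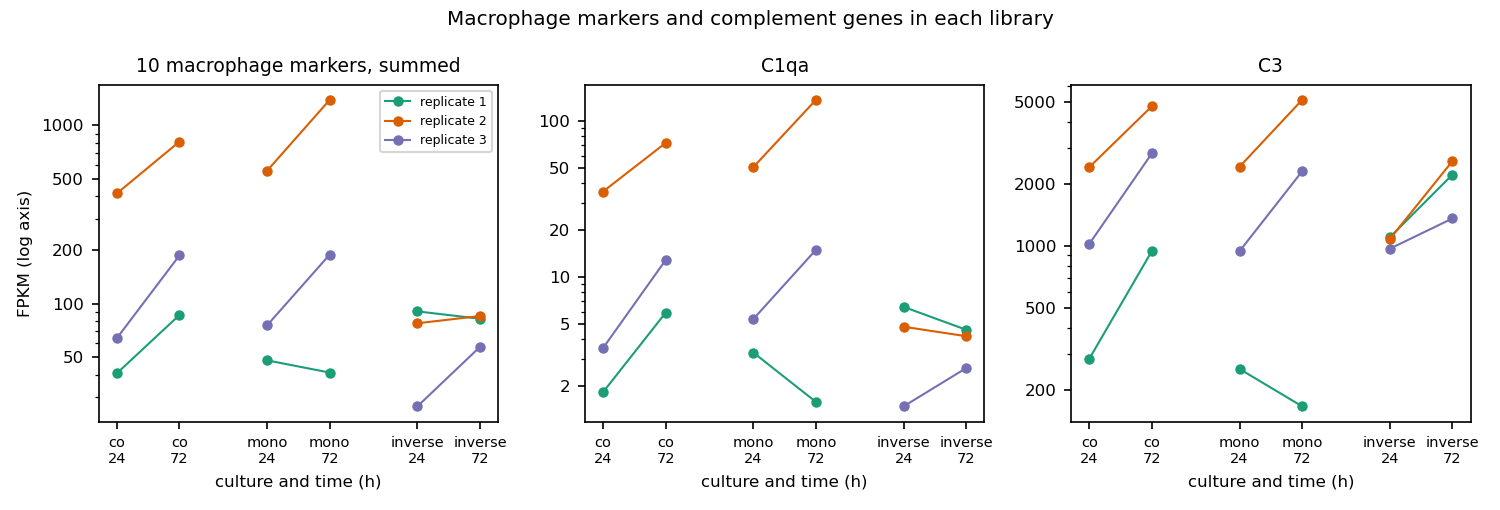
FPKM (log axis) of the 10 macrophage markers summed, of C1qa and of C3 (1 panel each) in every library of standard co-culture, standard mono-culture and inverse co-culture (x axis, with the time in h) and lines joining same-numbered libraries. In standard co-culture the sum was 40.7, 415 and 64.0 at 24 h and 86.4, 811 and 186 at 72 h in replicates 1, 2 and 3.

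Of the macrophage markers themselves, 6 of 10 were higher at 72 h with a p under 0.05 and 0 lower, and 7 were higher in all 3 pairs, beside 4.36%, 8.11% and 11.1% of all genes. Their median log2 change was 0.70, with pair medians of 0.25, 0.65 and 1.16. In mono-culture it was 0.71, but the pair medians there were -0.28, 1.29 and 1.22. Of 9 markers tested in mono-culture, 3 were higher at a p under 0.05 and 2 in all 3 pairs, beside 4.47% and 15.7% of all genes. Cd68, a lysosomal marker, had 1.45, 17.3 and 3.96 FPKM at 24 h and 3.22, 28.01 and 5.804 FPKM at 72 h. Lyz2, C1qa and C1qb were the most abundant of these markers, and Csf1r, Cd14 and Adgre1 were lower at 72 h in replicate 1.

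Cytokine and chemokine genes were on balance higher as well, with 19 of 45 at a p under 0.05 and 0 lower (4.36% and 8.11% of all genes), and a median of 0.36 (pair medians 0.40, 0.19 and 0.59). Without the block 2 members had a p under 0.05, and without replicate 3 there were 8. Leaving out those that macrophages express strongly, 17 of 37 were higher at a p under 0.05, and the part of macrophages in the cytokine and complement values was not tested. Saa3, an acute-phase protein, had 1.77, 709 and 95.9 FPKM at 24 h and 8.23, 1228 and 656 FPKM at 72 h (log2 change 1.84, standard error 0.36). Each pair was higher, but replicate 1 stayed far below the others at both times. Ccl9, a chemokine of macrophages, had 4.31, 42.9 and 16.2 FPKM at 24 h and 8.37, 84.5 and 50.5 FPKM at 72 h, and Ackr4, a scavenging chemokine receptor, 1.57, 2.90 and 3.47 FPKM at 24 h and 4.83, 5.71 and 7.84 FPKM at 72 h without overlap. Csf1, the growth factor of macrophages and the most abundant member, had 1975, 891 and 1121 FPKM at 24 h and 1643, 887 and 925 FPKM at 72 h, a log2 change of -0.18 (standard error 0.12). In mono-culture 17 of 41 cytokine genes were higher (4.47% of all genes) and the median was 0.30. The difference of the time courses had a p under 0.05 for 1 gene, Ccl6.

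Of 25 iCAF genes, which include Il6, chemokines and acute-phase genes, 13 were higher at a p under 0.05 and 2 lower, beside 4.36% and 8.11% of all genes. Their median was 0.56, with pair medians of 0.97, 0.14 and 0.59, and without the block 1 had a p under 0.05. Ly6c1 had 16.03, 23.7 and 28.2 FPKM at 24 h and 56.1, 62.9 and 55.4 FPKM at 72 h and its groups did not overlap (log2 change 1.37, standard error 0.17, adjusted p = 0.248). Haptoglobin (Hp) had 63.5, 854 and 856 FPKM at 24 h and 222, 1124 and 1145 FPKM at 72 h (log2 change 0.87, standard error 0.29), and Clec3b, which encodes tetranectin, 0.696, 7.59 and 5.71 FPKM at 24 h and 3.99, 11.7 and 23.7 FPKM at 72 h. Cfd (adipsin), which is both a complement protease and an adipocyte product, was lower in 3 of 3 pairs, with 14.5, 33.6 and 77.3 FPKM at 24 h and 9.72, 23.04 and 50.1 FPKM at 72 h. The list shares C3 and Cfd with the complement list. In mono-culture the median of the iCAF list was 0.27, with 9 of 25 higher and 1 lower at a p under 0.05 (4.47% and 4.44% of all genes). The difference of the time courses had a p under 0.05 for 0 members. Log2 changes in mono-culture were 1.17 for Ly6c1, 0.24 for Hp, 2.11 for Clec3b and -1.16 for Cfd. Of 19 myCAF genes, 1 was higher and 1 lower, and the median was -0.22.

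Genes of sterol synthesis, targets of the transcription factor SREBP2 when cell cholesterol is low, had a median of 0.41. Of 25, 8 were higher at a p under 0.05 and 1 lower (4.36% and 8.11% of all genes), and 14 were higher in all 3 pairs (11.1%). The pair medians of 0.64, 0.01 and 0.41 were close to 0 in replicate 2 alone, and with median-ratio scaling 15 were higher and 0 lower. Lss, lanosterol synthase, had 7.69, 10.1 and 12.4 FPKM at 24 h and 14.8, 13.5 and 17.9 FPKM at 72 h, and the sterol oxidase Msmo1 14.6, 22.5 and 23.2 FPKM at 24 h and 28.4, 24.9 and 39.4 FPKM at 72 h. Neither gene's groups overlapped, although the changes were small (log2 changes 0.61 and 0.61). Srebf2, which encodes SREBP2, had 62.99, 76.00 and 74.3 FPKM at 24 h and 84.3, 84.8 and 87.4 FPKM at 72 h, and its feedback regulator Insig1 22.99, 54.2 and 83.9 FPKM at 24 h and 44.2, 52.7 and 108 FPKM at 72 h. Sc5d, a late enzyme of the pathway, had a log2 change of 0.59 (standard error 0.17). The mono-culture median was 0.30, with 10 members higher (4.47% of all genes). For the difference of the time courses 0 members had a p under 0.05.

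Among genes of cholesterol efflux, 3 of 15 were higher and 0 lower (4.36% and 8.11% of all genes), and the median was 0.13. In mono-culture 4 of 14 were higher (4.47% of all genes) and the median was 0.29. Apoe, the lipoprotein that takes up exported cholesterol, had 68.01, 459 and 395 FPKM at 24 h and 227, 611 and 648 FPKM at 72 h, with replicate 1 low at both times (log2 change 0.95, standard error 0.26). Npc2, a lysosomal cholesterol carrier, had a log2 change of 0.06 (standard error 0.15).

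Adipocyte and lipid droplet genes were lower in part. Of 31 tested, 10 were lower at a p under 0.05 and 1 higher (8.11% and 4.36% of all genes), and 13 were lower in all 3 pairs and 1 higher (27.4% and 11.1%). Car3, a carbonic anhydrase of adipocytes, had 26.4, 93.9 and 167 FPKM at 24 h and 5.27, 40.2 and 96.4 FPKM at 72 h (log2 change -1.41, standard error 0.27). Cidec, which makes large lipid droplets, had 6.63, 11.4 and 42.2 FPKM at 24 h and 2.53, 3.80 and 23.4 FPKM at 72 h (log2 change -1.18, standard error 0.16, adjusted p = 0.266), and the fatty acid ligase Acsl1 37.2, 52.4 and 132 FPKM at 24 h and 18.8, 35.9 and 95.4 FPKM at 72 h. In these genes replicate 3 had the highest level at both times. Lpl, lipoprotein lipase and the most abundant member, was instead higher in 3 of 3 pairs, with 263, 1051 and 1001 FPKM at 24 h and 503, 1212 and 1242 FPKM at 72 h, and the citrate lyase Acly had a log2 change of 0.19 (standard error 0.13). The list median was -0.18, and -0.61 in inverse co-culture, where 16 members were lower (12.8% of all genes). In mono-culture the pair medians went in different directions (-0.65, 0.75 and -0.26).

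Collagen genes showed few differences between the times. Of 26 collagen chains 2 were higher at a p under 0.05 and 0 lower (median 0.07), beside 4.36% and 8.11% of all genes. Col1a1 had 7722, 10708 and 9092 FPKM at 24 h and 9096, 9856 and 7297 FPKM at 72 h, and Col3a1 4568, 17338 and 14238 FPKM at 24 h and 13975, 20531 and 19200.0 FPKM at 72 h, where replicate 1 at 24 h was far below the other 5 libraries. Col28a1 had 56.96, 143 and 207 FPKM at 24 h and 241, 260.2 and 274 FPKM at 72 h without overlap (log2 change 1.11, standard error 0.31), the largest difference lying again in replicate 1. Of 26 genes of collagen processing 2 were higher, P4ha1 and P4ha2, and 3 lower. Loxl3, a lysyl oxidase that crosslinks collagen, had 162, 74.2 and 99.5 FPKM at 24 h and 94.9, 55.4 and 63.6 FPKM at 72 h and was lower in 3 of 3 pairs (log2 change -0.61, standard error 0.10). The collagen chaperone Serpinh1 and the procollagen protease Adamts2 had log2 changes of 0.08 (standard error 0.14) and 0.21 (0.14).

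Of 32 elastic fibre and matricellular genes 6 were higher and 3 lower (4.36% and 8.11% of all genes). Fibronectin (Fn1), which the study followed, had 3854, 6188 and 4671 FPKM at 24 h and 9052, 7932 and 4849 FPKM at 72 h, so that replicate 3 hardly differed while replicate 1 differed most (log2 change 0.55, standard error 0.27). Fbln1, fibulin 1, had 34.4, 191 and 85.5 FPKM at 24 h and 147, 231 and 161 FPKM at 72 h, and thrombospondin 2 (Thbs2) 297, 211 and 280.2 FPKM at 24 h and 272, 105 and 164 FPKM at 72 h, lower in every pair. Sparc had a log2 change of 0.11 (standard error 0.19). Of 38 proteoglycan genes 4 were higher and 6 lower. Syndecan 4 (Sdc4), a heparan sulphate co-receptor, had 251, 274 and 231 FPKM at 24 h and 290.0, 439 and 351 FPKM at 72 h without overlap (log2 change 0.50, standard error 0.13). Versican (Vcan) had 76.1, 93.1 and 107 FPKM at 24 h and 81.97, 89.3 and 75.05 FPKM at 72 h, and Chst11, which sulphates chondroitin, 20.8, 16.9 and 15.8 FPKM at 24 h and 17.5, 14.4 and 16.4 FPKM at 72 h, so that the groups of each overlapped (log2 changes -0.15 and -0.14, standard errors 0.14 and 0.12). Glypican 4 (Gpc4) was lower without overlap, with 102, 49.7 and 71.8 FPKM at 24 h and 44.1, 38.1 and 49.5 FPKM at 72 h. Biglycan (Bgn) and decorin (Dcn), the most abundant members, had log2 changes of 0.11 (standard error 0.17) and 0.49 (0.24).

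In the basement membrane list 3 of 17 were higher and 1 lower (4.36% and 8.11% of all genes). The lower member, nephronectin (Npnt), had 55.4, 3.02 and 10.03 FPKM at 24 h and 8.63, 2.74 and 3.44 FPKM at 72 h, a spread led by replicate 1. Col4a1 and Col4a2 had log2 changes of 0.05 (standard error 0.15) and 0.10 (0.13). Of 39 matrix proteases and inhibitors 9 were higher and 5 lower. The aggrecanases Adamts5 and Adamts1 did not overlap, with 52.2, 65.9 and 75.2 FPKM at 24 h and 85.5, 98.4 and 105 FPKM at 72 h for Adamts5 and 82.01, 115 and 115 FPKM at 24 h and 122, 158 and 185 FPKM at 72 h for Adamts1 (log2 changes 0.59 and 0.57, standard errors 0.09 and 0.09). Dpp4, a membrane peptidase, had 35.03, 36.8 and 41.9 FPKM at 24 h and 51.4, 58.5 and 57.4 FPKM at 72 h. Its change was close to uniform over the pairs (log2 change 0.55, standard error 0.09). The abundant inhibitors Serpinf1 and Timp1 had log2 changes of -0.35 (standard error 0.13) and -0.15 (0.13). Of 14 integrins 0 were higher and 3 lower, among them Itga9 with 54.7, 43.2 and 41.8 FPKM at 24 h and 37.8, 34.3 and 36.2 FPKM at 72 h. The median of the integrins was -0.29, and 0.02 without replicate 1. Itgb1 and Itgb5 had log2 changes of -0.14 (standard error 0.15) and -0.05 (0.16).

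The contractile genes showed no common direction, with 1 of 24 smooth muscle genes higher at a p under 0.05 and 0 lower. Over all genes these shares were 4.36% and 8.11%. Acta2, which encodes αSMA, had 3129, 581 and 1122 FPKM at 24 h and 1194, 771 and 899 FPKM at 72 h, so that replicates 1 and 3 were lower and replicate 2 higher (log2 change -0.43, standard error 0.33). Des, which encodes desmin, had 46.7, 53.9 and 47.8 FPKM at 24 h and 57.5, 76.5 and 52.5 FPKM at 72 h and was higher in 3 of 3 pairs, and the cytoplasmic actin Actg1 had a log2 change of -0.11 (standard error 0.18). Of 24 YAP targets 3 were higher and 1 lower. Igfbp3, an IGF-binding protein, had 326, 1173 and 723 FPKM at 24 h and 1796, 2103 and 1471 FPKM at 72 h. The groups did not overlap and the 72 h libraries were alike, while replicate 1 at 24 h was the lowest of all (log2 change 1.44, standard error 0.33, adjusted p = 0.355). Thrombospondin 1 (Thbs1) had a log2 change of 0.18 (standard error 0.25).

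Of 18 retinoid genes 1 was higher and 1 lower at a p under 0.05, close to the shares over all genes (4.36% and 8.11%). Aldh1a3, which makes retinoic acid, was lower in 3 of 3 pairs, with 219.8, 33.8 and 79.2 FPKM at 24 h and 61.03, 14.3 and 36.8 FPKM at 72 h (log2 change -1.38, standard error 0.16, adjusted p = 0.248). Its paralogue Aldh1a2 was higher in 3 of 3 pairs, with 201, 486 and 411 FPKM at 24 h and 315, 609.9 and 522 FPKM at 72 h (log2 change 0.44, standard error 0.11). The retinal reductase Dhrs3 had a log2 change of 0.30 (standard error 0.23). In mono-cultured PSC Aldh1a3 had 186, 33.9 and 78.4 FPKM at 24 h and 209, 30.5 and 59.8 FPKM at 72 h. The difference between its time courses of -1.26 on the log2 scale had the smallest p of all 13694 genes in that comparison (standard error 0.23) and did not pass after adjustment in limma. In a model over all 12 standard libraries the change in co-culture passed (adjusted p = 0.0334 from limma). Aldh1a3 was not among the genes called by voom or by the model over all 24 libraries. In inverse co-culture its log2 change was -1.64, so the decrease was not particular to standard co-culture.

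Of 44 TGF-beta and BMP genes 6 were higher and 10 lower at a p under 0.05, where 4.36% and 8.11% of all genes were. Smad6, an inhibitory SMAD, had 277, 164 and 214 FPKM at 24 h and 192, 69.5 and 109 FPKM at 72 h (log2 change -0.91, standard error 0.15), whereas the ligand Bmp6 was higher in each pair with 16.97, 5.08 and 7.18 FPKM at 24 h and 22.4, 11.99 and 12.7 FPKM at 72 h. Chrdl2, a BMP antagonist, was low at 24 h (0.323, 1.85 and 0.759 FPKM) and had 4.24, 6.14 and 3.30 FPKM at 72 h. The abundant members Fstl1 and Id3 had log2 changes of 0.02 (standard error 0.14) and 0.03 (0.22). Of 31 Wnt genes 2 were higher and 3 lower, close to the shares over all genes, and Ctnnb1 and the antagonist Sfrp1 had log2 changes of -0.15 (standard error 0.10) and 0.69 (0.31). Of 50 ligands and receptors of the receptor tyrosine kinases 9 were higher and 4 lower. Igf1, the growth factor, had 31.00, 124 and 81.4 FPKM at 24 h and 77.3, 167 and 126 FPKM at 72 h (log2 change 0.78, standard error 0.18), and its binding protein Igfbp2 was lower in each pair, with 622, 36.3 and 98.5 FPKM at 24 h and 179, 23.01 and 48.5 FPKM at 72 h. Igfbp4 and Igfbp7, the most abundant members, had log2 changes of 0.41 (standard error 0.34) and 0.08 (0.17).

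Immediate early genes were on balance higher, with 11 of 37 at a p under 0.05 and 1 lower, beside 4.36% and 8.11% of all genes (median 0.31, in mono-culture 0.41). Nr4a1, an orphan nuclear receptor, had 36.2, 601 and 279 FPKM at 24 h and 180.0, 652 and 726 FPKM at 72 h, with replicate 1 at 24 h the lowest, and the AP-1 gene Junb 148, 832 and 449 FPKM at 24 h and 378, 853 and 633 FPKM at 72 h. Of 28 genes of NF-kB and JAK-STAT feedback 6 were higher and 2 lower. Zc3h12a (regnase-1), an RNase that degrades cytokine mRNA, had 16.8, 36.2 and 22.4 FPKM at 24 h and 31.5, 67.7 and 50.2 FPKM at 72 h and was higher by a similar factor in every pair (log2 change 0.98, standard error 0.10, adjusted p = 0.245). Socs3, a feedback inhibitor of IL-6 signalling, had 39.03, 146 and 81.6 FPKM at 24 h and 71.3, 177 and 109 FPKM at 72 h, and the abundant members Tnfaip2 and Jak1 had log2 changes of 0.48 (standard error 0.16) and -0.21 (0.10). Of 39 interferon-stimulated genes 1 was higher and 1 lower, with pair medians of 0.26, -0.58 and -0.11. Their members Ifi27 and Bst2 had log2 changes of -0.06 (standard error 0.11) and -0.08 (0.16). Of 20 antigen presentation genes 4 were higher and 0 lower. Macrophages also make MHC class II molecules, their markers had a median of 0.70 over the same time with 6 of 10 higher, and the part of those cells in these values was not tested. The invariant chain Cd74 had 0.321, 4.95 and 0.258 FPKM at 24 h and 1.31, 10.2 and 2.83 FPKM at 72 h, with replicate 2 the highest, and H2-Ab1, an MHC class II chain, 2.58, 1.75 and 0.748 FPKM at 24 h and 7.81, 3.84 and 1.52 FPKM at 72 h, with replicate 1 the highest. B2m had a log2 change of -0.12 (standard error 0.13).

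Genes of the translation and energy machinery were slightly lower at 72 h in most pairs. Of 78 cytosolic ribosomal protein genes 18 were lower at a p under 0.05 and 0 higher (8.11% and 4.36% of all genes), and 61 were lower in all 3 pairs, where 27.4% of all genes were. The median was -0.20, and -0.12 with median-ratio scaling, under which 7 had a p under 0.05. In mono-culture the median was -0.30, with 57 members lower at a p under 0.05 and 71 in all 3 pairs, and in inverse co-culture -0.53, with 74 lower, where 4.44%, 14.6% and 12.8% of all genes were. Rpl13a had 82.5, 66.8 and 70.7 FPKM at 24 h and 65.99, 50.9 and 46.4 FPKM at 72 h, and the stalk proteins Rplp1 and Rplp0 had log2 changes of -0.31 (standard error 0.13) and -0.25 (0.13). Of 52 nuclear genes of the respiratory chain 15 were lower and 0 higher (8.11% and 4.36% of all genes). All 3 pairs were lower for 40 (27.4% of all genes), and 18 were lower without overlap (7.66% of all genes). Ndufa10 and Uqcrq, subunits of complexes I and III, had 69.4, 58.9 and 66.1 FPKM at 24 h and 45.01, 40.7 and 54.8 FPKM at 72 h and 156, 128 and 127 FPKM at 24 h and 104, 104 and 104 FPKM at 72 h. Atp5b and Cox4i1, the most abundant members, had log2 changes of -0.26 (standard error 0.13) and -0.25 (0.09). The list median of -0.21 compares with -0.09 in mono-culture and -0.50 in inverse co-culture, and with median-ratio scaling it was -0.14. Messages of the mitochondrial genome had a median of -0.05, with 1 of 12 lower at a p under 0.05, and mt-Co1 and mt-Cytb had log2 changes of -0.05 (standard error 0.15) and -0.23 (0.16).

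Of 41 ATF4 targets, which cells switch on when amino acids run short, 5 were higher and 6 lower (4.36% and 8.11% of all genes). The serine synthesis enzymes Phgdh and Psph were lower in every pair, with 229.8, 66.4 and 91.6 FPKM at 24 h and 89.4, 60.8 and 40.4 FPKM at 72 h for Phgdh and 58.8, 34.5 and 45.4 FPKM at 24 h and 39.8, 28.4 and 26.1 FPKM at 72 h for Psph. Atf5 and Cebpb, the most abundant members, had log2 changes of -0.06 (standard error 0.11) and 0.46 (0.18). Of 27 endoplasmic reticulum chaperone genes 0 were higher and 0 lower at a p under 0.05, and P4hb and Calr had log2 changes of 0.03 (standard error 0.12) and 0.02 (0.10). Of 30 NRF2 targets and metallothioneins 2 were higher, Mt1 among them, and 2 lower, and Fth1 and Gpx3 had log2 changes of 0.25 (standard error 0.16) and 0.52 (0.40).

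Whether genes differed in time with and without KPC cells was tested by subtracting the log2 changes, over the 12 libraries of the standard model. Of 13694 genes 0 (0%) passed in limma, and 379 had a p under 0.05 without adjustment, 119 with a more positive change in co-culture (0.869%) and 260 with a more negative one (1.90%). The genes with the smallest p were Aldh1a3, Gm22933, Mgarp, Gm15760, Ccl6 and Gm25982. Mgarp, a mitochondrial protein of the hypoxia response, had 4.52, 2.52 and 2.83 FPKM at 24 h and 14.7, 15.6 and 4.89 FPKM at 72 h in co-culture and 5.79, 3.03 and 2.96 FPKM followed by 3.60, 2.95 and 2.22 FPKM in mono-culture (difference 1.90, standard error 0.41). Gm22933, Gm15760 and Gm25982, predicted genes, were at or below 3.88 FPKM in every library of the standard model. Ccl6 was higher in co-culture than in mono-culture at each time, with 0.695, 6.30 and 1.13 FPKM at 24 h and 0.859, 16.2 and 2.09 FPKM at 72 h in mono-cultured PSC.

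Against inverse co-culture, 0 of 13510 genes (0%) passed in limma, and 1094 had a p under 0.05 without adjustment, 642 with a more positive change in standard co-culture (4.75%) and 452 with a more negative one (3.35%). The smallest adjusted p was 0.258. Tmem150a, a membrane protein, had 3.94, 2.44 and 2.36 FPKM at 24 h and 19.8, 12.1 and 6.35 FPKM at 72 h in standard co-culture. In inverse co-culture it had 22.3, 19.6 and 12.1 FPKM at 24 h and 3.86, 1.91 and 4.89 FPKM at 72 h, so that the directions were opposite in all pairs (difference 4.08, standard error 0.47, adjusted p = 0.258 from limma). Ptx3, a long pentraxin, had 371, 626 and 542 FPKM and then 582, 1063 and 906 FPKM in standard co-culture, and 803, 786 and 617 FPKM and then 715, 698 and 597 FPKM in inverse co-culture (difference 0.85, standard error 0.14). The other genes with the smallest p were Gm10177, Xist, Gm8034 and Tmem256, with differences of 1.24, -0.81, 3.45 and 0.81 on the log2 scale. Between lists, complement genes had 7 of 18 members with a p under 0.05 and a more positive change in standard co-culture, ribosomal protein genes 32 of 78 and genes of the respiratory chain 23 of 52, with none in the other direction.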

How the data were processed

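PSC RNA was enriched for poly(A) and sequenced on an Illumina instrument by a service provider. Per the study's methods, bases were called with CASAVA, reads were mapped to GRCm38.p6 with HISAT2 2.0.5 and fragments were counted with featureCounts 1.5.0-p3 at default settings, which do not use strand. The annotation release is not given in the sources used here. The authors deposited FPKM per gene, which are normalised values and not counts, so small differences of low genes cannot be weighted by their depth directly. The study names DESeq2 1.20.0 for its own comparisons, which were not used here. From FPKM and GENCODE M21 lengths, the total of each library was fitted so that low values came out as whole fragments (tolerance 0.02). The totals above are these fitted values. With them, fragments were whole in all libraries for 95.6% of the genes above 0, at a wider tolerance that rose with the fragment number.

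log2(FPKM + 0.5) was compared with limma 3.58.1 (R 4.3.3), a moderated two-sided test with intensity trend and the replicate number as a block, on genes above 1 FPKM in at least 3 of the libraries compared. p-values were adjusted by Benjamini-Hochberg over all genes tested (limit 0.05). An exact permutation test of a single gene cannot go below p = 0.25 with 3 pairs. Same-numbered libraries deviated together from their group means (r = 0.596, 0.509 and 0.381 for replicates 1, 2 and 3 of standard co-culture, and 0.479 to 0.766 in mono-culture), and each correlated best with its own number, so the numbers were taken to pair the samples. In inverse co-culture r was 0.047, 0.056 and 0.214, so pairing there rests on a number alone. The fits were also run on simulated data in which the spread was shuffled over genes. That removes its link with intensity, so no error rate of these comparisons is drawn from it.

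Members and gene lists were chosen with earlier results of these data known. The rule for named genes took called genes, and, since there were none, the 6 with the smallest p of a comparison, the 2 members with the highest mean FPKM of each list, and Vcan, Chst11, Sdc4 and Fn1. Alternatives were other pseudocounts, filters, scalings, limits and models, voom on recovered fragments, no block and leaving out each pair. Promoters are RefSeq sequences of GRCm38.p6.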

Additional observations from a re-analysis of the deposited data

Results flagged for a closer look

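In 7 named genes every pair of standard co-culture moved one way between 24 h and 72 h and every pair of the culture beside it the other way. Mgarp, Tmem150a, Ptx3 and Tmem256 had been named for the small p of these same differences. Their place here therefore follows from that choice and is not a separate result. No difference passed after adjustment in limma. Against standard mono-culture, Mgarp differed by 1.90 on the log2 scale (1.57 against -0.33, standard error 0.41, adjusted p = 1) and Des by 0.53 (0.31 against -0.22, standard error 0.29, adjusted p = 1). Against inverse co-culture, Tmem150a differed by 4.08 (1.85 against -2.22, standard error 0.47, adjusted p = 0.258). Ptx3 differed by 0.85 (0.72 against -0.13), Rgs5 by 1.34 (0.48 against -0.87), Tmem256 by 0.81 (0.18 against -0.63) and Mcm10 by -1.21 (-0.96 against 0.25), each with an adjusted p of 0.611 in limma. Of all 12805 genes tested, 230 (1.8%) had opposite directions in all pairs against mono-culture and 410 (3.2%) against inverse co-culture. The 7 named genes are a listing, and their number was not tested against these shares. The inverse libraries were made from 120 ng of RNA and those of the standard model from 450 ng, so model and input cannot be told apart.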

How the results depend on the processing

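No setting gave a called gene in the main comparison apart from these. Voom on recovered fragments called 5 genes (smallest adjusted p 0.047), and limma models over all 12 standard libraries and over all 24 libraries called 4 (Aldh1a3, Ccl6, Mt1 and Stxbp2) and 8 (Ccl6, Cyp4b1, Hsd11b1, Loxl3, Mgl2, Mt1, Stxbp2 and Zc3h12a), with smallest adjusted p-values of 0.0334 and 0.00475. Leaving out 1 pair gave 0 to 1 called genes (Ccl6 without replicate 1) and 676 to 1757 genes with a p under 0.05, 676 of them without replicate 3 (330 higher and 346 lower). Without the replicate block that the pairing allows, 467 genes had a p under 0.05 (159 higher and 308 lower) and the smallest adjusted p was 0.876. The split of 558 higher and 1039 lower became 821 and 511 with median-ratio scaling and 740 and 594 with quantile normalization. The lowest correlation of the pairing check was 0.381, and 0.336 to 0.488 under its alternatives, which were chosen after seeing the data, as were those of the next 2 comparisons.

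In mono-culture a pseudocount of 0.1 and voom called 1 gene each (Clec3b), and leaving out 1 pair 0 to 24 (24 without replicate 1). In inverse co-culture the fit without the block called 1 gene (Mir7087), voom 334, an adjusted p limit of 0.1 called 259, and leaving out 1 pair gave 0 to 694 (54 without replicate 2 and 694 without replicate 3). For the difference from mono-culture, 3 genes were called without a filter (Gm11628, Gm22816 and Gm22933) and 1 without an intensity trend (Gm22933), and for that from inverse co-culture 0 under all settings run.

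Among named genes, log2 changes turned direction with median-ratio scaling for Cdkn1a (0.032), Col1a1 (0.007), Itgb5 (0.028), Ifi27 (0.014), Atf5 (0.012) and mt-Co1 (0.025) and with quantile normalization for Serpinh1 (-0.013), Sparc (-0.34), Bgn (-0.10), Itgb5 (0.019) and Fstl1 (-0.084). Leaving out 1 pair turned Cdkn1a (-0.16 to 0.058), Npc2 (-0.13 to 0.23), Actg1 (-0.31 to 0.10), Acta2 (-0.85 to 0.044), Thbs1 (-0.017 to 0.53), Col1a1 (-0.22 to 0.058), Col4a1 (-0.022 to 0.17), Itgb1 (-0.24 to 0.052), Itgb5 (-0.21 to 0.15), Id3 (-0.18 to 0.33), Igfbp4 (-0.076 to 0.76), Igfbp7 (-0.057 to 0.27), Ifi27 (-0.17 to 0.001), Bst2 (-0.30 to 0.054), B2m (-0.21 to 0.023), Atf5 (-0.16 to 0.021), P4hb (-0.048 to 0.084), Calr (-0.007 to 0.058), Gpx3 (-0.11 to 0.95), mt-Co1 (-0.10 to 0.045), Dhrs3 (-0.057 to 0.47), Tek (-0.093 to 0.20), Sox9 (-0.60 to 0.015) and Vcan (-0.28 to 0.023), where the ranges are over the 3 pairs left out. The causes were not tested. How far depth, rather than the spread between the 3 libraries of a group, limits these comparisons was not measured.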
